A study of Homo sapiens with 6 samples.

Results

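The p53 pathway was followed through 30 genes, namely regulators that bind or act on p53, genes that p53 is known to transcribe and paralogues such as SESN3. They were taken by symbol from the 27852 genes listed in an RNA-seq table of H69AR cells. H69AR is a drug-resistant line that was derived from the small cell lung cancer line H69 by culture with adriamycin. The authors describe it as nonneuroendocrine. Cells were transfected with an siRNA against TREX1, a nuclease that degrades cytosolic DNA, or with a control siRNA (siCtrl), and RNA was taken on day 3. There were 3 libraries labelled siTREX1 and 3 labelled siCtrl, all from the same line with no further treatment stated. The comparison therefore rests on 1 cell line and 1 siRNA. No label states whether replicate libraries were made from separate cultures, so the p-values reflect library-to-library spread that may be technical.

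The transcription factor p53 is held low by MDM2 and MDM4 and is released after DNA damage and other stresses. It then binds DNA as a tetramer at response elements made of a pair of decamers and raises genes of cell cycle arrest, DNA repair, redox control and cell death, together with inhibitors such as MDM2 and PPM1D that close feedback loops. Many of the target genes are also driven by other factors.

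Values are CPM (estimated counts scaled to a common library size), which do not depend on transcript length here. The table lists 1 transcript per gene symbol, so each value is the level of that transcript and not the gene's total. Differences were tested with edgeR's quasi-likelihood test over 13221 genes with Benjamini-Hochberg adjustment, and a gene was called higher or lower at an adjusted p under 0.05. Library totals ran from 16329106 to 22482687 estimated counts. The siRNA target TREX1, listed as 1 of its 6 transcripts in GENCODE 29 (ENST00000456089, 629 bases), had 28.4, 16.03 and 18.2 CPM in the libraries labelled siTREX1, against 22.7, 31.5 and 24.7 CPM in siCtrl libraries. The groups overlapped, since replicate 1 labelled siTREX1 was above 2 of the 3 controls, and TREX1 did not pass the test (log2 fold change -0.33, SE 0.24, adjusted p = 0.349). By this transcript, replicate 1 labelled siTREX1 was not lower than the controls, so counts of calls are also given without it. The gene's total was not analysed here. The authors refer to these cells as TREX1-depleted, and they compared TREX1 between siCtrl and siTREX1 H69AR cells by qPCR and immunoblot. Those measurements were not analysed here. Genes of the mitochondrial genome held 3.98% to 5.01% of counts in the libraries labelled siTREX1 and 5.94% to 6.37% in siCtrl libraries, and their part in the differences was not tested beyond refitting without them. Of 8 small cell and neuroendocrine markers, 5 stayed below 1 CPM in all libraries. The list summed to 33.6 to 36.6 CPM in the libraries labelled siTREX1 and 44.1 to 45.4 CPM in siCtrl libraries. Most of this sum was DLL3 and INSM1. DLL3 averaged 19.4 CPM in the libraries labelled siTREX1 and 26.3 CPM in siCtrl libraries and was lower (adjusted p = 0.00401). INSM1 averaged 13.1 and 15.3 CPM in the same order and did not pass the test (adjusted p = 0.145), nor did SYP (adjusted p = 0.312). Of 6 immune markers, 4 stayed below 1 CPM throughout, with sums of 1.88 to 2.92 CPM in the libraries labelled siTREX1 and 2.13 to 2.74 CPM in siCtrl libraries. The part of these markers in the results was not tested. The 6 fibroblast and endothelial markers, mostly COL1A1, summed to 497 to 537 CPM in the libraries labelled siTREX1 and 529 to 541 CPM in siCtrl libraries. The 6 non-neuroendocrine and mesenchymal markers, mostly VIM, summed to 2911 to 2946 CPM in the libraries labelled siTREX1 and 2876 to 2906 CPM in siCtrl libraries.

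The p53 pathway genes did not move in 1 direction. Of the 30 genes, 29 were tested. Relative to siCtrl, 5 rose in the libraries labelled siTREX1, 6 fell and 18 did not pass the test. The share called was 37.9%, beside 33.3% of all tested genes, and the background was 17.8% higher and 15.5% lower, so the share of called pathway genes lay near the background. Over the 29 genes the log2 fold change had a median of -0.15, beside -0.02 over all tested genes. The groups did not overlap in 18 of the 29 genes, beside 50.5% of all tested genes. Of these 18, 12 were lower and 6 higher in the libraries labelled siTREX1, beside 3327 lower and 3344 higher over all tested genes. The log2 fold change was negative in 20 of the 29, beside 6882 of the 13221 tested genes. The higher genes were DRAM1, AEN, TIGAR, PPM1D and TRIAP1, and the lower genes were SESN1, PIDD1, CCNG1, DDB2, CDKN1A and SESN3. Without replicate 1 labelled siTREX1, 4 genes were higher and 5 lower, beside 25.5% of all tested genes called: DRAM1, PIDD1 and SESN3 no longer passed, and SESN2 was lower (adjusted p = 0.0395).

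**Figure D1:**
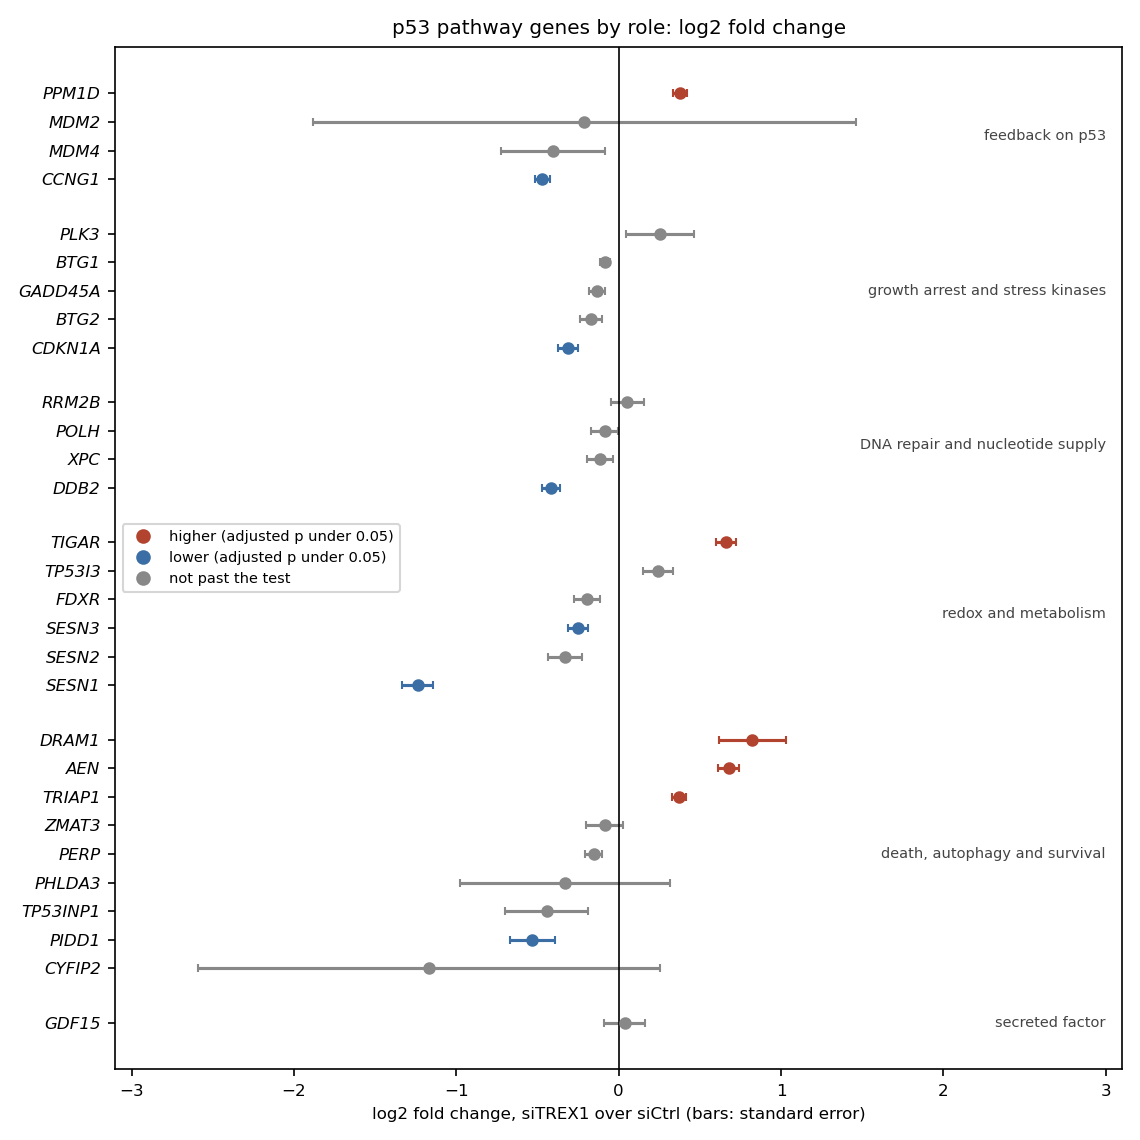
Log2 fold change (siTREX1 over siCtrl, x axis) of the 29 tested p53 pathway genes, grouped by role, with standard errors as bars, where red and blue points passed the test and grey points did not. Of the 5 higher genes, 3 are in death, autophagy and survival, 1 in feedback on p53 and 1 in redox and metabolism. The 6 lower genes lie in every role except the secreted factor, and SESN1 lies farthest below 0 among those past the test, at -1.24.

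The promoters of the pathway genes were searched for the p53 decamer, because the response elements of some of them lie near the start of transcription. RefSeq promoter windows on GRCh38.p14, running from 250 bases before to 50 bases after a start, were found for 26 of the 30 genes. By window, the decamer consensus occurred on either strand in 5 of the 36 windows of these genes, beside 6.63% of all 35116 windows. By gene, it occurred in 5 of the 26 (19.2%), beside 8.06% of the 27305 genes with a window. The genes were AEN, DDB2, FDXR, PLK2 and SESN1, and their matches are shown because these genes went different ways: AEN was higher, DDB2 and SESN1 were lower, FDXR did not pass the test and PLK2 was hardly detected. Capitals mark the decamer in each stretch, written on the gene's strand.
DDB2: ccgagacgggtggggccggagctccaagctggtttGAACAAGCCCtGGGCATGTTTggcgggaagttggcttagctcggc
AEN: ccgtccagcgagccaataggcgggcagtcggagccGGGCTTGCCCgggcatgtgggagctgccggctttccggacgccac
FDXR: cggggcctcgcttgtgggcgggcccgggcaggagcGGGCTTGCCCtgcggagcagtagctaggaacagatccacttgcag
SESN1: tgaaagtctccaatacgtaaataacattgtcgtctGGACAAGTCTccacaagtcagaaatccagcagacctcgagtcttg
PLK2: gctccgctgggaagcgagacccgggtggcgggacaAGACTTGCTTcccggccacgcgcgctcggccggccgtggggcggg
These stretches lie at chr11:47214944-47215023 on the plus strand (DDB2), chr15:88621271-88621350 on the plus strand (AEN), chr17:74872961-74873040 on the minus strand (FDXR), chr6:109008993-109009072 on the minus strand (SESN1) and chr5:58460174-58460253 on the minus strand (PLK2). DDB2 alone of the 5 held a pair of decamers, with 1 base between them, beginning 5 and 16 bases after the start site. The single decamer began 34 bases before the start in AEN, 11 bases before it in FDXR and 132 bases before it in PLK2. In SESN1 it began 49 bases before a start that lies 567 bases downstream of the start of the listed transcript, and the window at that transcript's own start held no match. Other motifs searched on both strands were CCAAT, in 13 of 26 genes (50%, beside 39.7% of genes with a window), TATAAA, in BTG1 and GDF15 (7.69%, beside 14.0%), and TGACGTCA, in PPM1D (3.85%, beside 2.25%). Over the 10115 tested genes with a window the shares were 7.54% for the p53 decamer, 43.5% for CCAAT, 8.51% for TATAAA and 3.82% for TGACGTCA. PLK2, counted among the 5 genes with the decamer, is not one of these tested genes. A match is a description of the letters and not evidence of binding.

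Among the genes that feed back on p53, PPM1D was higher and CCNG1 was lower, while MDM2 and MDM4 did not pass the test. PPM1D, the phosphatase that removes activating phosphates from p53 and from checkpoint kinases, had 48.8, 52.4 and 52.4 CPM in the libraries labelled siTREX1, against 39.6, 38.9 and 39.7 CPM in siCtrl libraries. The groups did not overlap, and PPM1D was 1.30-fold higher (log2 fold change 0.38, SE 0.05, adjusted p = 0.00182). CCNG1 encodes cyclin G1, which recruits a phosphatase that acts on MDM2. It had 58.1, 55.9 and 61.3 CPM in the libraries labelled siTREX1, against 82.8, 80.8 and 78.8 CPM in siCtrl libraries. Every library labelled siTREX1 was below every control, and CCNG1 was 1.38-fold lower (log2 fold change -0.47, SE 0.05, adjusted p = 0.000949). MDM2, the ubiquitin ligase that marks p53 for degradation, had 0, 110 and 50 estimated counts in the libraries labelled siTREX1 and 95, 99 and 0 in siCtrl libraries. A library of each group was thus listed at 0, and the difference was not detectable (log2 fold change -0.21, SE 1.67, adjusted p = 0.937). The table lists 1 of the 34 MDM2 transcripts in GENCODE 29, so these counts are not the gene's total. MDM4, which masks the activation domain of p53, had 5.03, 6.78 and 3.69 CPM in the libraries labelled siTREX1, against 8.76, 7.22 and 4.47 CPM in siCtrl libraries. The groups overlapped, and the log2 fold change was -0.40 (SE 0.32, adjusted p = 0.387).

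Among the growth arrest genes, CDKN1A was lower and the other 4 tested genes did not pass the test. CDKN1A encodes p21, the cyclin-dependent kinase inhibitor through which p53 arrests the cell cycle. It had 45.1, 44.3 and 42.2 CPM in the libraries labelled siTREX1, against 50.8, 54.3 and 58.4 CPM in siCtrl libraries. The groups did not overlap, and CDKN1A was 1.24-fold lower (log2 fold change -0.31, SE 0.06, adjusted p = 0.0114). In the siCtrl libraries CDKN1A lay at the 78.5th percentile of the tested genes by level. The antiproliferative paralogues BTG1 and BTG2 averaged 115 ± 1.64 and 26.5 ± 1.38 CPM in the libraries labelled siTREX1, against 121 ± 2.42 and 29.9 ± 1.84 CPM in siCtrl libraries (SD, n = 3 each), with adjusted p of 0.0732 and 0.108. GADD45A, a stress sensor that binds PCNA and p21, averaged 58.6 ± 3.41 CPM in the libraries labelled siTREX1 and 64.4 ± 0.891 CPM in siCtrl libraries (adjusted p = 0.0878). BTG1, BTG2 and GADD45A each had groups that did not overlap, with lower values in the libraries labelled siTREX1. The stress kinase PLK3 had 7.70, 6.24 and 5.37 CPM in the libraries labelled siTREX1, against 6.66, 4.54 and 4.98 CPM in siCtrl libraries (adjusted p = 0.403). Its paralogue PLK2 had at most 1 estimated count in any library and was not tested.

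DDB2 was the repair gene that passed the test. It encodes the smaller subunit of the complex that recognises ultraviolet damage in nucleotide excision repair. DDB2 had 26.2, 26.6 and 27.5 CPM in the libraries labelled siTREX1, against 36.3, 33.8 and 37.0 CPM in siCtrl libraries. With no overlap between groups, DDB2 was 1.34-fold lower (log2 fold change -0.42, SE 0.05, adjusted p = 0.00239). The other 3 genes of this role had groups that overlapped: XPC, which recognises helix distortion in the same pathway, averaged 14.5 ± 0.961 CPM in the libraries labelled siTREX1 and 15.7 ± 0.813 CPM in siCtrl libraries (adjusted p = 0.325). POLH, the polymerase that copies past ultraviolet lesions, averaged 29.5 ± 2.29 CPM in the libraries labelled siTREX1 and 31.3 ± 2.51 CPM in siCtrl libraries (adjusted p = 0.483). RRM2B, the p53-inducible subunit of ribonucleotide reductase, averaged 10.8 ± 0.906 CPM in the libraries labelled siTREX1 and 10.4 ± 0.620 CPM in siCtrl libraries (adjusted p = 0.722; SD, n = 3 each throughout).

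The redox and metabolic genes held the largest fall among the called members, in SESN1, and also 1 rise, in TIGAR. The sestrins are stress proteins that restrain the growth kinase complex mTORC1 and lower oxidative damage. The listed SESN1 transcript, ENST00000356644, spans chr6:108986442-109009555 on the minus strand of GRCh38. SESN1 had 8.85, 8.93 and 8.16 CPM in the libraries labelled siTREX1, against 20.7, 22.1 and 18.4 CPM in siCtrl libraries. The 3 values labelled siTREX1 lay far below the controls, and SESN1 was 2.36-fold lower (log2 fold change -1.24, SE 0.10, adjusted p = 0.000460). The log2 fold change stayed between -1.31 and -1.18 when each library was left out in turn. SESN3 had 65.8, 68.6 and 75.3 CPM in the libraries labelled siTREX1, against 86.5, 80.2 and 82.3 CPM in siCtrl libraries. All values labelled siTREX1 lay below the controls, and SESN3 was 1.19-fold lower (log2 fold change -0.25, SE 0.06, adjusted p = 0.0220), a call that was lost without replicate 1 or 2 labelled siTREX1 or without siCtrl replicate 1 or 3 (adjusted p 0.0621 to 0.0729). SESN2 had 11.8, 10.5 and 9.53 CPM in the libraries labelled siTREX1, against 13.9, 13.7 and 12.6 CPM in siCtrl libraries. These groups also did not overlap, but SESN2 did not pass the test (log2 fold change -0.33, SE 0.10, adjusted p = 0.0535).

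The ratios between the sestrins were compared within each library, over 4 pairs of paralogues in all. The ratio of SESN1 to SESN2 was 0.748, 0.849 and 0.857 in the libraries labelled siTREX1, against 1.497, 1.61 and 1.46 in siCtrl libraries. The listed SESN1 transcript (1 of 7 in GENCODE 29) was thus below that of SESN2 (its 1 transcript) in every library labelled siTREX1 and above it in every control, a log2 difference of -0.90 (exact two-sided permutation test over libraries, p = 0.1, adjusted p = 0.2). The ratio of SESN1 to SESN3 differed by -0.99 on the log2 scale (exact permutation p = 0.1, adjusted p = 0.2). With 3 libraries against 3, 0.1 is the smallest p that the 20 splits allow. The ratio of SESN2 to SESN3 differed by -0.09 (exact permutation p = 0.8, adjusted p = 0.8) and that of BTG1 to BTG2 by 0.09 (exact permutation p = 0.4, adjusted p = 0.533).

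TIGAR encodes a fructose bisphosphatase that slows glycolysis and feeds the pentose phosphate pathway. Its listed transcript, ENST00000179259, spans chr12:4321205-4354593 on the plus strand. TIGAR had 56.1, 62.1 and 56.1 CPM in the libraries labelled siTREX1, against 37.2, 35.01 and 37.9 CPM in siCtrl libraries. The groups were well apart, and TIGAR was 1.58-fold higher (log2 fold change 0.66, SE 0.06, adjusted p = 0.000794). TP53I3, a quinone oxidoreductase known as PIG3, averaged 11.2 ± 0.488 CPM in the libraries labelled siTREX1 and 9.48 ± 0.624 CPM in siCtrl libraries (adjusted p = 0.0895). FDXR, the ferredoxin reductase of mitochondria, averaged 32.9 ± 3.23 CPM in the libraries labelled siTREX1 and 37.8 ± 1.41 CPM in siCtrl libraries (adjusted p = 0.109; SD, n = 3 each).

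**Figure D2:**
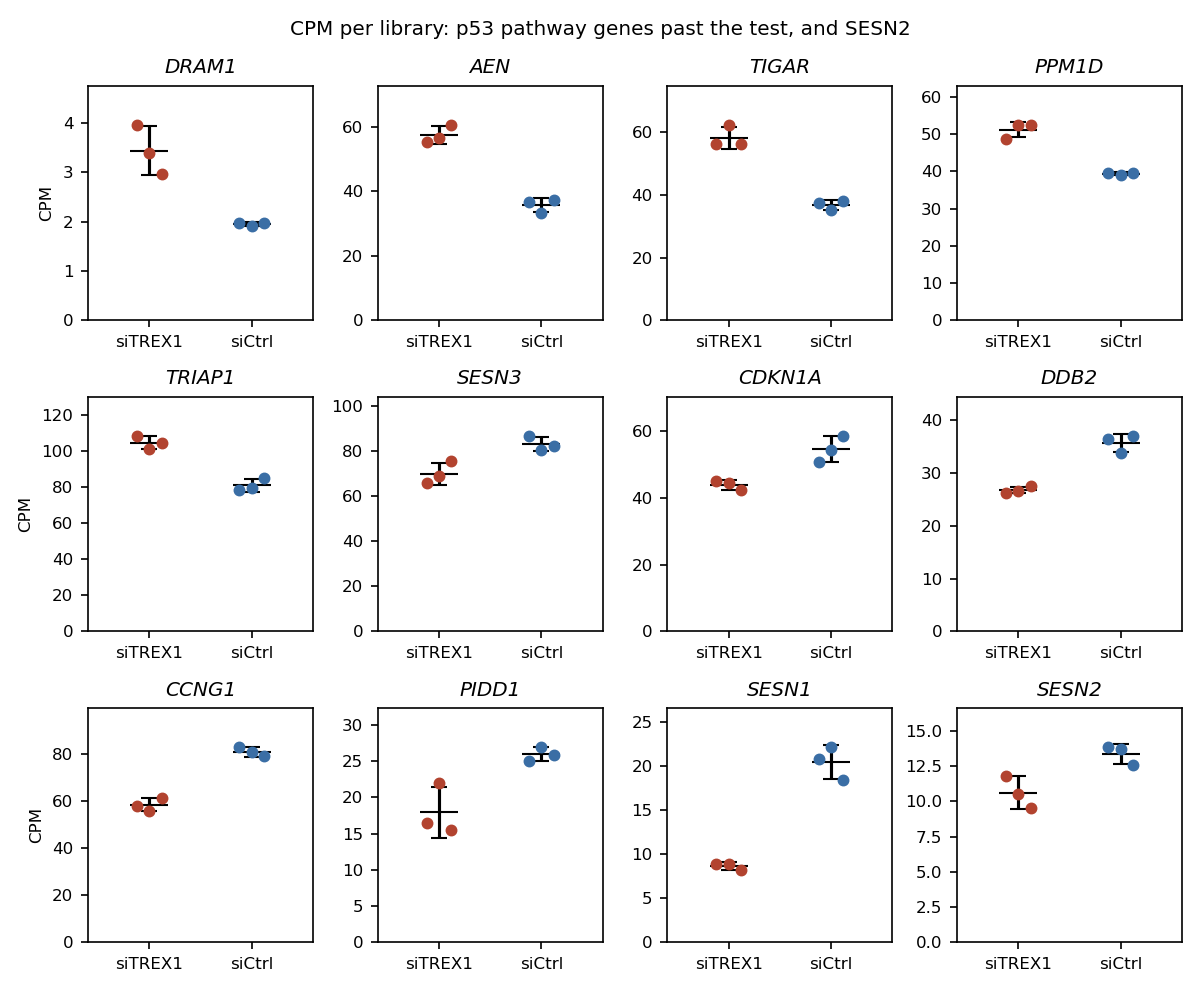
CPM (y axis, from 0) in each library for the 11 p53 pathway genes past the test and SESN2, with siTREX1 in red and siCtrl in blue, and black bars for the mean and SD of 3 libraries. In all 12 panels the groups do not overlap, and SESN1 has 8.16 to 8.93 CPM in the libraries labelled siTREX1 and 18.4 to 22.1 CPM in siCtrl libraries.

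Of the 9 tested genes of cell death, autophagy and survival, AEN, DRAM1 and TRIAP1 were higher, PIDD1 was lower and 5 did not pass the test. AEN, a nuclease that acts in apoptosis, is listed as ENST00000332810 at chr15:88621296-88632282 on the plus strand. It had 55.2, 56.4 and 60.5 CPM in the libraries labelled siTREX1, against 36.7, 33.3 and 37.4 CPM in siCtrl libraries. Its groups did not overlap, and AEN was 1.599-fold higher (log2 fold change 0.68, SE 0.06, adjusted p = 0.000853). TRIAP1, a mitochondrial protein that protects from apoptosis, had 108, 101 and 104 CPM in the libraries labelled siTREX1, against 78.3, 79.5 and 85.0 CPM in siCtrl libraries. Again the groups did not overlap, and TRIAP1 was 1.29-fold higher (log2 fold change 0.37, SE 0.05, adjusted p = 0.00199). TRIAP1 lay at the 85.1st percentile of tested genes by level in siCtrl libraries.

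DRAM1, a lysosomal membrane protein of p53-driven autophagy, was low. It had 3.96, 3.40 and 2.98 CPM in the libraries labelled siTREX1, against 1.99, 1.92 and 1.97 CPM in siCtrl libraries. The groups did not overlap, and DRAM1 was 1.77-fold higher (log2 fold change 0.82, SE 0.21, adjusted p = 0.0264). The call was lost without any 1 library other than replicate 3 labelled siTREX1 (adjusted p 0.0655 to 0.0923). PIDD1, the scaffold that activates caspase-2, had 16.5, 21.98 and 15.4 CPM in the libraries labelled siTREX1, against 25.1, 26.9 and 25.9 CPM in siCtrl libraries. Replicate 2 labelled siTREX1 lay nearest to the controls but below them, and PIDD1 was 1.44-fold lower (log2 fold change -0.53, SE 0.14, adjusted p = 0.0288). That call was lost without any 1 library other than replicate 2 labelled siTREX1 (adjusted p 0.0681 to 0.0901).

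PERP, a desmosomal membrane protein, averaged 68.4 ± 3.76 CPM in the libraries labelled siTREX1 and 76.0 ± 2.16 CPM in siCtrl libraries (SD, n = 3 each) and just missed the threshold (adjusted p = 0.0573). ZMAT3, an RNA-binding protein that regulates splicing, and TP53INP1, an autophagy and cell death cofactor, had adjusted p of 0.611 and 0.233. PHLDA3, which inhibits the survival kinase AKT, had between 0.217 and 0.753 CPM over the 6 libraries (adjusted p = 0.732). The CYFIP2 row is an 892-base transcript with a retained intron, and its 0 to 29 estimated counts do not measure the coding messenger RNA (adjusted p = 0.576). The secreted stress cytokine GDF15, a known target of both p53 and stress signals, had 7.84, 8.48 and 6.88 CPM in the libraries labelled siTREX1, against 7.42, 7.02 and 8.19 CPM in siCtrl libraries. Its groups overlapped, with a log2 fold change of 0.04 (SE 0.13, adjusted p = 0.846).

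Of 22 tested genes for relatives, kinases, acetyltransferases and other regulators of p53, 7 were higher, 3 were lower and 12 did not pass the test, with a median log2 fold change of 0.13. The list was thus 31.8% higher and 13.6% lower, beside 17.8% and 15.5% of all tested genes, and without replicate 1 labelled siTREX1 it held 6 higher and 3 lower genes. The acetyltransferase EP300, a coactivator of p53, had 29.9, 30.1 and 30.9 CPM in the libraries labelled siTREX1, against 18.9, 19.2 and 20.4 CPM in siCtrl libraries (log2 fold change 0.63, SE 0.05, adjusted p = 0.000617). Its paralogue CREBBP had 29.01, 33.3 and 25.3 CPM in the libraries labelled siTREX1, against 17.0, 18.5 and 17.1 CPM in siCtrl libraries (log2 fold change 0.74, SE 0.11, adjusted p = 0.00396). PPP1R13B, which encodes ASPP1 and steers p53 towards death genes, was lower, at 8.02, 7.44 and 7.38 CPM in the libraries labelled siTREX1, against 12.9, 12.3 and 13.6 CPM in siCtrl libraries (log2 fold change -0.77, SE 0.09, adjusted p = 0.00168). RPL5, a ribosomal protein that can bind MDM2, was lower by a log2 fold change of -0.12 (SE 0.02, adjusted p = 0.00397). The third lower gene, named after its values were seen, was the damage kinase ATR (log2 fold change -0.38, adjusted p = 0.0238).

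Of 12 further p53 targets of cell death, 8 were tested, and FAS, TNFRSF10A, TNFRSF10B and TP53AIP1 had too few counts. BBC3, which encodes the BH3-only protein PUMA, was lower, SIVA1 was higher and 6 did not pass the test (12.5% in each direction, beside 17.8% higher and 15.5% lower over all tested genes), with the same counts without replicate 1 labelled siTREX1. BBC3 had 2.23, 3.47 and 2.04 CPM in the libraries labelled siTREX1, against 11.4, 14.0 and 15.0 CPM in siCtrl libraries. The groups were far apart, and BBC3 was 5.20-fold lower (log2 fold change -2.38, SE 0.24, adjusted p = 0.00106). SIVA1, a proapoptotic protein, averaged 242 CPM in the libraries labelled siTREX1 and 208 CPM in siCtrl libraries (log2 fold change 0.22, SE 0.04, adjusted p = 0.00802). APAF1, the core of the apoptosome, had a log2 fold change of -0.51 (SE 0.19, adjusted p = 0.0855), and the pore former BAK1 had 0.24 (SE 0.09, adjusted p = 0.0870).

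**Figure D3:**
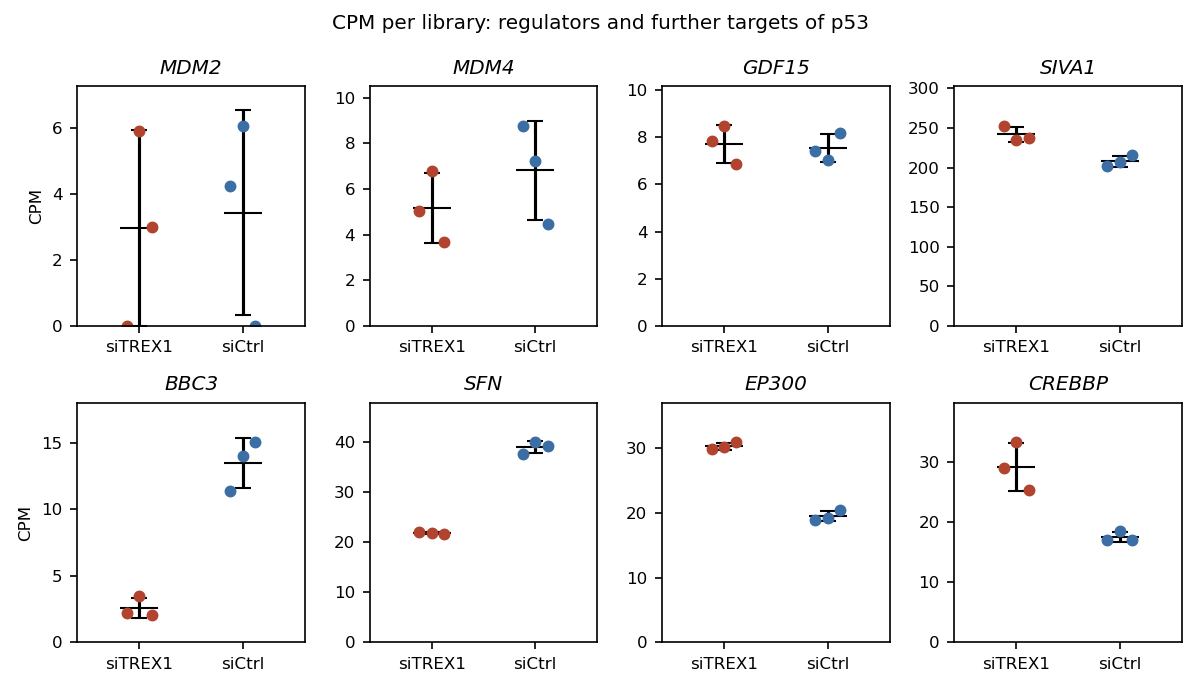
CPM (y axis, from 0) in each library for regulators and further targets of p53, with siTREX1 in red and siCtrl in blue, and black bars for the mean and SD of 3 libraries. The groups overlap for MDM2, MDM4 and GDF15 and are apart for SIVA1, BBC3, SFN, EP300 and CREBBP.

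Of 33 tested further targets with other roles, 6 were higher, 12 were lower and 15 did not pass the test, with a median log2 fold change of -0.17. These are 18.2% higher and 36.4% lower, beside 17.8% and 15.5% of all tested genes. Without replicate 1 labelled siTREX1, 6 were higher and 11 lower of 34 tested. THBS1, an inhibitor of angiogenesis, had 95.7, 92.6 and 96.9 CPM in the libraries labelled siTREX1, against 28.5, 28.9 and 29.97 CPM in siCtrl libraries (log2 fold change 1.71, SE 0.04, adjusted p = 1.84e-05). The cytokine LIF was higher by a log2 fold change of 1.97 (SE 0.09, adjusted p = 9.25e-05). SFN, which encodes the cell cycle brake 14-3-3 sigma, was lower, at 21.99, 21.8 and 21.7 CPM in the libraries labelled siTREX1, against 37.6, 39.9 and 39.3 CPM in siCtrl libraries (log2 fold change -0.84, SE 0.05, adjusted p = 0.000165).

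Mitotic genes that p53 lowers through p21 and the DREAM repressor complex went both ways: of 20 tested, 4 were higher, 4 were lower and 12 did not pass the test, and their median log2 fold change was 0.00. The 20% higher and 20% lower lie near the 17.8% and 15.5% of all tested genes, and without replicate 1 labelled siTREX1 the counts were 5 and 3. The mitotic kinase PLK1 was higher (log2 fold change 0.25, SE 0.03, adjusted p = 0.00121), as were CCNB1, BIRC5 and MYBL2. CENPF, a kinetochore protein, was lower (log2 fold change -0.29, SE 0.03, adjusted p = 0.00121), as were TOP2A (-0.20), NEK2 (-0.43) and BUB1B. CCNB1, BIRC5, MYBL2 and BUB1B were named after their values were seen.

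**Figure D4:**
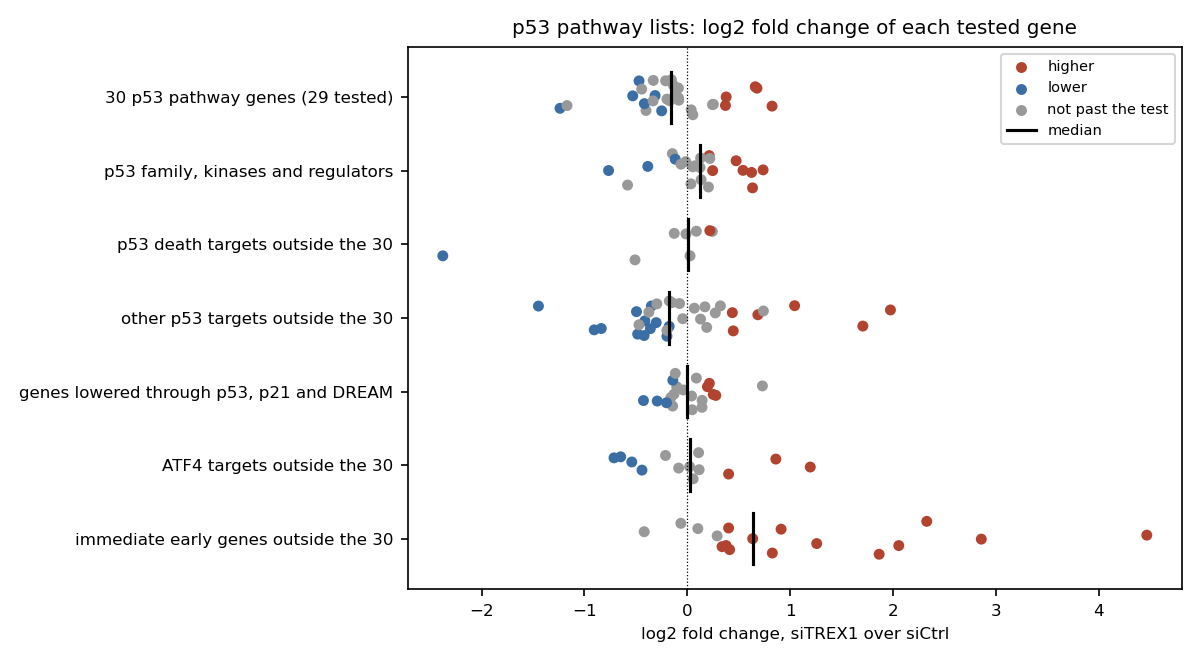
Log2 fold change (siTREX1 over siCtrl, x axis) of each tested gene in the 30 p53 pathway genes and 6 related lists, where red and blue points passed the test, grey points did not and a black line marks each list's median. The medians of the p53 lists lie between -0.17 and 0.13, and that of the immediate early genes lies at 0.64.

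Several of the 30 genes also answer to ATF4, the factor of the integrated stress response, or to growth and stress signals that raise immediate early genes, so both lists were counted. Of 13 tested ATF4 targets outside the 30, 3 were higher, 4 were lower and 6 did not pass the test, with a median log2 fold change of 0.02 (23.1% higher and 30.8% lower, beside 17.8% and 15.5% of all tested genes). Without replicate 1 labelled siTREX1, 3 were higher and 3 lower of 14 tested. The amino acid carrier subunits SLC3A2 (log2 fold change 1.195, SE 0.06, adjusted p = 0.000109) and SLC7A11 (0.86, SE 0.10, adjusted p = 0.00177) were higher, and the pseudokinase TRIB3 was lower (-0.71, SE 0.13, adjusted p = 0.00839). Of 17 tested immediate early genes, 13 were higher and 4 did not pass the test, with a median log2 fold change of 0.64. The share higher was 76.5%, beside 17.8% of all tested genes, and 12 of the 17 were higher without replicate 1 labelled siTREX1. Like the other lists, this list was chosen with earlier results of these data known, so its share is a description and not a test. The matricellular gene CCN1 had 253, 248 and 241 CPM in the libraries labelled siTREX1, against 66.0, 69.1 and 68.6 CPM in siCtrl libraries (log2 fold change 1.86, SE 0.03, adjusted p = 1.38e-05). IER3, a survival gene, was higher by a log2 fold change of 2.33 (SE 0.14, adjusted p = 0.000226), and the AP-1 subunit JUN by 0.41 (SE 0.03, adjusted p = 0.000530).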

How the data were processed

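RNA was sequenced from H69AR cells as 3 libraries labelled siTREX1 and 3 labelled siCtrl. The authors quantified reads with kallisto, and the deposited values are estimated counts (scaledTPM, tximport 1.18.0) for 1 transcript per gene symbol, scaled to each library's depth and free of transcript length. FastQC and hg19 are also named in the submitters' processing notes. For the kallisto version and annotation, details were not given in the sources used here. Estimated counts were rounded, and edgeR 4.0.16 was run under R 4.3.3 (robust quasi-likelihood test, TMM factors, filterByExpr with a minimum count of 10, Benjamini-Hochberg adjustment). Simulated counts were also put through the fit, but the outcome is not given here and no statement rests on it. Transcripts were matched by identifier to GENCODE 29 on GRCh38 (99.3% matched), and promoters come from RefSeq on GRCh38.p14. All 30 genes were reported, with values per library for those past the test, for MDM2, MDM4, CDKN1A, GDF15, the sestrins and paralogues of called genes; in other lists the genes with the lowest p were named. The 30 genes and all lists were chosen with earlier results of these data known. Alternatives were 3 scalings, 2 count filters, DESeq2 1.42.0, limma-voom 3.58.1, a replicate block, removal of a GC trend and leaving out each library. The row without a symbol (at most 0.109% of counts) was left out. A few genes are not reported here.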

Additional observations from a re-analysis of the deposited data

How the results depend on the processing

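Of the 11 called genes among the 30, 8 kept their direction and call in all 15 alternatives: AEN, TIGAR, PPM1D, TRIAP1, SESN1, CCNG1, DDB2 and CDKN1A. Among these, CDKN1A came nearest to the threshold, with an adjusted p of 0.0470 under the replicate block. The share of all called genes that kept their calls was not counted. The calls of SESN3 and DRAM1 were lost with the replicate block (adjusted p = 0.0579 and 0.0788), which gave 4 higher and 5 lower genes (31.0%, beside 25.9% of all tested genes called in that fit), and that of PIDD1 with the GC trend removed (adjusted p = 0.0981), beside the left-out libraries given above. Replicate numbers were not taken as pairing, since deviations of libraries with the same number correlated at 0.0183 to 0.0261, although every library correlated best with its own number, a hint from the data and not the design. Genes gained were SESN2 (DESeq2, adjusted p = 0.0458, and at least 10 counts in all libraries, 0.0470), PERP (5 alternatives), BTG1 and TP53I3 (GC trend removed, 0.0276 and 0.0488). The count of higher death targets outside the 30 was 2 with DESeq2 or with the GC trend removed, against 1. The count of lower ones was 2 with DESeq2 and 1 to 3 with each library left out, 3 without replicate 3 labelled siTREX1. TREX1 ran between -0.62 and -0.16 with each library left out, and passed the test without replicate 1 labelled siTREX1 (adjusted p = 0.0499). The causes were not tested. PHLDA3, CYFIP2 and PLK2 had few estimated counts, and MDM2 varied from 0 to 110 within a group. No difference was detectable in PHLDA3, CYFIP2 or MDM2, and PLK2 was not tested in the main fit.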
